A study of Mus musculus with 8 samples.

Results

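The FXYD regulators and subunits of the sodium pump were described here in RNA-Seq data from postnatal day 7 (P7) dental pulp (DP) of mouse first molars. The genes were chosen by family from a list of 8, *Fxyd1*, *Fxyd2*, *Fxyd5*, *Fxyd6*, *Fxyd7*, *Atp1b1*, *Atp1b2* and *Atp1b3*, of which 7 were among the 12148 genes in the deposited table. *Fxyd7* was not analysed here. *Fxyd6* was selected on its fall in the comparison of genotypes, so its difference is given as a description with no test. The other 6 genes were chosen by name. The study had already reported *Fxyd2*, like *Fxyd6*, as downregulated in its RNA-Seq, so the test of *Fxyd2* below is not independent of that report.

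The data comprise 8 libraries of C57BL/6J pulp, 4 from Osterix-Cre controls and 4 from Osterix-Cre:Tgfbr2f/f mice (Tgfbr2cko). Both groups carried the Cre, which the Osterix promoter expresses in odontoblasts and pulp mesenchyme, and the type II TGFβ receptor gene *Tgfbr2* was floxed in the mutants only. Pulp from the left and right molars was combined, and the labels do not tie a library to named animals, so p-values measure the spread between these libraries. The titles carry a second number that repeats within a genotype, with 3 different numbers among the controls and 2 among Tgfbr2cko, so some libraries may share an animal, and the n of 4 and 4 and the p-values then overstate independence. With libraries of one such number averaged, *Fxyd2* (-0.75 log2 units) and *Atp1b1* (0.69) kept their calls in limma. Libraries are called here by the numbers in their titles, 49 to 52 for the controls and 53 to 56 for Tgfbr2cko.

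The sodium pump (Na,K-ATPase) exchanges intracellular sodium for extracellular potassium at the cost of ATP, and the gradient it builds drives sodium-coupled transport and electrical signalling. It consists of a catalytic alpha subunit, a glycosylated beta subunit that brings the alpha subunit to the cell surface, and in many tissues a small single-span FXYD protein that tunes the affinity for ions. FXYD proteins are named after a short motif just outside the membrane, and the best known are phospholemman (*Fxyd1*), the gamma subunit of kidney (*Fxyd2*), dysadherin (*Fxyd5*) and phosphohippolin (*Fxyd6*).

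The libraries held between 8682872 and 13539670 reads on the analysed genes, at which 1 read is 0.0739 to 0.115 CPM (read counts scaled to the library total). All 6 odontoblast markers and all 8 dental mesenchyme markers on fixed lists were analysed, whereas 4 of 15 sensory axon markers and 4 of 10 Schwann cell markers were. *Tgfbr2*, counted over the whole gene and so not only over its floxed part, spanned 7.16 to 7.64 log2 CPM in the controls and 7.00 to 7.61 in Tgfbr2cko, a log2 difference of -0.29 ± 0.17 (SE, n = 4 and 4). Mutant libraries 55 (7.16) and 56 (7.61) lay within the control range, library 55 at its lower end. The *Tgfbr2* difference was -0.42 without library 56, -0.42 with library weights and -0.58 without libraries 49, 55 and 56. Enamel epithelium genes stood out in 3 libraries. The summed share of reads on *Amelx* and *Ambn*, which encode enamel proteins, was 18.5% in library 56, 2.74% in library 55 and 2.14% in control library 49, against 0.326% to 0.548% in the other 5. The differences of the members are given with and without these libraries where a call, a sign or the size changed.

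The coding stretch around the FXYD motif shows what the family shares. For each of the 5 analysed FXYD genes, 48 bases of the principal GENCODE M21 transcript are printed 5′ to 3′ on the coding strand, with the 4 codons of the motif in capitals.
Fxyd6: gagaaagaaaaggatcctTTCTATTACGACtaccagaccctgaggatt
Fxyd1: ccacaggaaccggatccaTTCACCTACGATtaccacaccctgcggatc
Fxyd3: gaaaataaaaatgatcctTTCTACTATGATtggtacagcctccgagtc
Fxyd5: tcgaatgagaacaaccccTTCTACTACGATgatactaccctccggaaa
Fxyd2: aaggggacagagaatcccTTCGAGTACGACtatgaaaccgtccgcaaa
The stretch of *Fxyd6* spans coding exons and an intron at chr9:45390645-45390796 (GRCm38, plus strand) and that of *Fxyd2* at chr9:45408117-45408319 on the same strand. The other 3 lie on the minus strand of chromosome 7, at chr7:31053455-31053920 for *Fxyd1*, chr7:31071347-31072184 for *Fxyd3* and chr7:31035264-31035413 for *Fxyd5*, and every stretch is split by at least 1 intron. *Fxyd1* shared 33 of the 48 bases with *Fxyd6* (68.8%), *Fxyd3* shared 31 (64.6%), *Fxyd5* 29 (60.4%) and *Fxyd2* 28 (58.3%). *Fxyd2*, whose gene follows *Fxyd6* on the same strand, was thus the least similar of the 4 over this stretch.

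The 5 analysed FXYD genes lie in a pair of clusters. *Fxyd6* (chr9:45370185-45396159) and *Fxyd2* (chr9:45399669-45410278) are neighbours on chromosome 9. *Fxyd5* (chr7:31032722-31042481), *Fxyd1* (chr7:31051678-31057199) and *Fxyd3* (chr7:31068172-31076704) follow one another on chromosome 7. The beta subunit genes are scattered, with *Atp1b1* at chr1:164437109-164458355, *Atp1b2* at chr11:69599736-69605942 and *Atp1b3* at chr9:96332655-96364442, all on the minus strand.

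In control pulp, *Fxyd6* was the most abundant FXYD gene and *Atp1b3* the most abundant beta subunit gene. On the scale of CPM per kilobase of annotated exon, which allows levels of different genes to be compared, *Atp1b3* reached 421 ± 36.8 (SD, n = 4) and ranked 71st of all genes. Among the FXYD and beta subunit genes, the order then ran through *Fxyd6* at 97.7 ± 32.8 CPM per kb, *Fxyd1* at 55.3 ± 15.3 and *Atp1b2* at 19.0 ± 6.62. *Atp1b1* (7.90 ± 0.774 CPM per kb), *Fxyd5* (6.63 ± 0.787), *Fxyd2* (2.74 ± 1.35) and *Fxyd3* (2.42 ± 1.05) made up the low end. The ranges of neighbours in this order overlapped only for *Atp1b1* with *Fxyd5* and for *Fxyd2* with *Fxyd3*.

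In Tgfbr2cko pulp the order of CPM per kb differed at 2 places. *Fxyd1* (58.2 ± 11.6 CPM per kb, SD, n = 4) stood above *Fxyd6* (33.8 ± 10.3), with no overlap between the 4 values of each. *Fxyd3* (5.80 ± 5.67) stood above *Fxyd5* (5.76 ± 0.691) and *Fxyd2* (1.51 ± 0.671), but its range overlapped that of *Fxyd5*. Neighbours from *Fxyd6* down to *Fxyd5* all overlapped, and *Fxyd2* lay below *Fxyd5* without overlap.

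**Figure D1:**
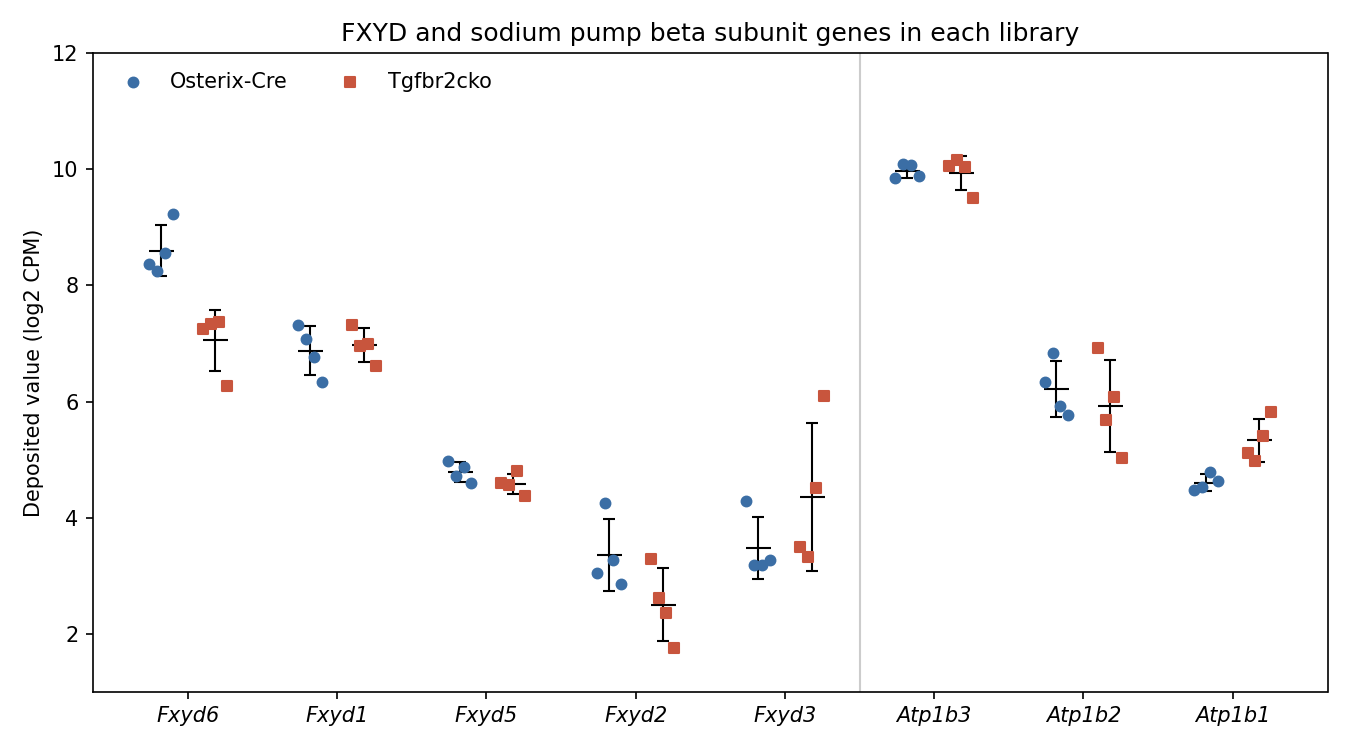
Deposited log2 CPM (y axis) of the 5 FXYD and 3 beta subunit genes analysed, with 1 point per library (circles Osterix-Cre, squares Tgfbr2cko) and bars for the mean ± SD of 4 libraries. The groups are separate for *Fxyd6* (lower in Tgfbr2cko) and *Atp1b1* (higher), and overlap for the other 6 genes.

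*Fxyd6*, the regulator for which the list was made, was lower in every Tgfbr2cko library. Its values were 8.36, 8.24, 8.56 and 9.22 log2 CPM in the controls and 7.25, 7.33, 7.37 and 6.26 in Tgfbr2cko. The groups lay apart by 0.86 log2 units, control library 52 was the highest, and library 56 stood well below the other 3 mutants. The means were 8.59 ± 0.44 and 7.05 ± 0.53 log2 CPM (SD, n = 4 and 4), a log2 difference of -1.54, which is a level 2.91-fold lower in Tgfbr2cko. In reads, *Fxyd6* had 2911 to 6110 per control library and 1034 to 1982 per mutant library, so counting error was small. Without library 56 the log2 difference was -1.27, and without the 3 libraries rich in enamel transcripts it was -1.38.

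Values of the mineralizing cell type varied in the same libraries. The summed level of the 6 odontoblast markers was 49765.8 to 102806.6 CPM in the controls, highest in library 52, and 30451.7 to 63932.8 CPM in Tgfbr2cko, lowest in library 56. The extremes of the odontoblast list and of *Fxyd6* thus fell in the same libraries. The list overlapped between genotypes. Since *Fxyd6* was selected on its fall, its own lack of overlap cannot be compared with that. Of the 6, *Bglap* alone was altered, downwards, by the unadjusted p and fold thresholds given below, which 3.65% of all genes passed in that direction, and none passed at an adjusted p under 0.05 (limma, 2 at an unadjusted p under 0.05). The median log2 difference over the 6 was -0.59, beside -0.01 over all genes. In bulk pulp, fewer cells of a type and less RNA per cell cannot be told apart, and the part of cell composition in the *Fxyd6* difference was not tested.

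The promoter of *Fxyd6* is shown because its level differed most among these genes, and that of *Atp1b1* because it was the one that differed in the other direction without overlap. RefSeq promoters (GRCm38.p6, 250 bases before to 50 after the transcription start) were given for 5 of the 8 listed genes. Capitals mark matches, on either strand, to CAGAC and GGCGCC, a pair of short SMAD-binding sequences, to the GC box GGGCGG and to the TATA box TATAAA.
Fxyd6: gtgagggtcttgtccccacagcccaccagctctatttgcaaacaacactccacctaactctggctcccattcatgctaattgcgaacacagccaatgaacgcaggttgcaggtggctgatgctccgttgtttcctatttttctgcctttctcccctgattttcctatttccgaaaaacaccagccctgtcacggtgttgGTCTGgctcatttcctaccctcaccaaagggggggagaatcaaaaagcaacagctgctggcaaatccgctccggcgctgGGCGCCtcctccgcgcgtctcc
Atp1b1: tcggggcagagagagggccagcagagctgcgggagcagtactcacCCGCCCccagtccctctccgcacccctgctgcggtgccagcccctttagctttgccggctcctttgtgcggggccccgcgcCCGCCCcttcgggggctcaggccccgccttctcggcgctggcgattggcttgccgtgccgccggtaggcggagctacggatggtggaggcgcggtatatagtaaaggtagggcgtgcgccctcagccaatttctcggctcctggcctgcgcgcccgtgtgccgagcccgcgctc
The *Fxyd6* promoter (chr9:45369935-45370234, plus strand) held 1 CAGAC, read on the opposite strand 51 bases before the start, and 1 GGCGCC at base 29 after it. The *Atp1b1* promoter (chr1:164458306-164458605, minus strand) held neither, but had 2 GGGCGG matches on the opposite strand, and neither promoter held TATAAA. Members that did not pass the thresholds held the same letters, with 2 CAGAC matches in the *Fxyd5* promoter, 1 CAGAC in each of the 2 *Atp1b3* promoters and 1 GGCGCC in one of them, whereas the *Fxyd1* promoter held neither. Such matches are common: of 32851 promoters of this length, 49.6% held CAGAC, 11.9% GGCGCC, 35.7% GGGCGG and 13.6% TATAAA. The GC content was 54.3% for *Fxyd6* and 71.0% for *Atp1b1*.

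The test of the genotypes asked which of the other members changed with the deletion. A gene was called altered where the unadjusted p was under 0.05 (limma, two-sided) and the levels differed by 1.5-fold or more. The fold cutoff is the one the study's results used, whereas its methods give a larger one for the gene ontology analysis. Of the 6 members tested, 1 was altered upwards and 1 downwards, against a background of 5.77% of all 12148 genes in either direction, 2.12% higher and 3.65% lower. The member altered downwards, *Fxyd2*, had been reported as lower by the study, so its call is not a fresh result beside that share. At an adjusted p under 0.05, which 0.947% of all genes reached, there was none among the 6. The groups did not overlap for 1 of the 6, *Atp1b1*, against 5.27% of all genes.

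*Fxyd2*, the gamma subunit known from kidney, was the member altered downwards. Its values were 3.04, 4.25, 3.27 and 2.85 log2 CPM in the controls and 3.28, 2.62, 2.36 and 1.75 in Tgfbr2cko. The groups overlapped, with mutant library 53 above 3 of the controls and control library 50 far above the rest. The log2 difference was -0.85 ± 0.36 (SE, 95% confidence interval -1.63 to -0.06), with an unadjusted p of 0.0359 and an adjusted p of 0.517 in limma and an exact permutation p of 0.143. The gene was thinly covered, at 44 to 183 reads per library. The call was lost without any one of libraries 50, 51, 54, 55 or 56, with log2 differences of -0.55, -0.87, -0.89, -0.80 and -0.60, and was also lost without the 3 libraries rich in enamel transcripts (-0.50).

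*Fxyd1*, encoding phospholemman, and *Fxyd5*, encoding dysadherin, did not pass the thresholds. *Fxyd1* had 7.31, 7.08, 6.77 and 6.34 log2 CPM in the controls and 7.32, 6.95, 6.99 and 6.61 in Tgfbr2cko. Control library 52, which was highest for *Fxyd6*, was lowest for *Fxyd1*. The log2 difference of *Fxyd1* was 0.09 ± 0.21 (SE), and its 95% confidence interval of -0.36 to 0.55 left room for a fold between 0.779 and 1.46 (limma adjusted p = 0.998, exact permutation p = 0.743). It was -0.08 without library 52, -0.02 without library 53 and 0.40, not past the thresholds, without libraries 49, 55 and 56.

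*Fxyd5* had 4.98, 4.71, 4.88 and 4.60 log2 CPM in the controls and 4.60, 4.56, 4.80 and 4.38 in Tgfbr2cko. These were the tightest values in the family, with an SD of 0.17 in each group, and they overlapped. *Fxyd5* differed by -0.20 ± 0.17 log2 units (SE, 95% confidence interval -0.56 to 0.16), with a limma adjusted p of 0.910 and an exact permutation p of 0.171.

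*Fxyd3*, an FXYD gene of epithelia that was not on the list of 8, was read beside them. Its values were 4.28, 3.18, 3.18 and 3.27 log2 CPM in the controls and 3.49, 3.33, 4.51 and 6.10 in Tgfbr2cko. The 3 highest values were those of libraries 56, 55 and 49, which were also the 3 libraries with the most enamel transcripts. *Fxyd3* differed by 0.88 ± 0.50 log2 units (SE) and did not pass the thresholds (limma p = 0.100, exact permutation p = 0.171). It was 0.30 without library 56 and 0.20 without libraries 49, 55 and 56, and it passed the thresholds without library 53 (1.17), without library 54 (1.22), or with libraries of one title number averaged (0.96). Of its annotated exon length, 42.45% overlaps *Lgi4* on the opposite strand, and *Lgi4* itself had 6 to 12 reads per library.

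The summed FXYD level was lower in every Tgfbr2cko library than in any control, and without *Fxyd6* the sums overlapped. The summed level was 166, 148, 153 and 192 CPM per kb in the controls and 121, 105, 111 and 83.3 in Tgfbr2cko. Without *Fxyd6*, the sum was 67.1 ± 17.0 CPM per kb (SD, n = 4) in the controls and 71.2 ± 8.67 in Tgfbr2cko, and the groups overlapped. Because *Fxyd6* was selected on its fall, these sums and the shares that follow are descriptions with no test.

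*Fxyd6* made up most of the FXYD level in control pulp as a group, and *Fxyd1* in Tgfbr2cko pulp. The share of *Fxyd6* was 48.2%, 49.5%, 60.0% and 75.8% of the family's CPM per kb in the controls and 30.8%, 37.4%, 36.2% and 22.3% in Tgfbr2cko. *Fxyd1* made up 34.3% ± 11.1 (SD, n = 4) in the controls and 55.1% ± 3.66 in Tgfbr2cko, while its own log2 level differed by 0.09. The ratio of *Fxyd6* to *Fxyd1* was 1.11 to 3.93 in the controls, above 1 in each library, and 0.415 to 0.695 in Tgfbr2cko, below 1 in each. *Fxyd3* was 1.03% to 2.41% of the family in the controls and 1.90% to 4.23% in mutant libraries 53, 54 and 55, but 17.0% in library 56.

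**Figure D2:**
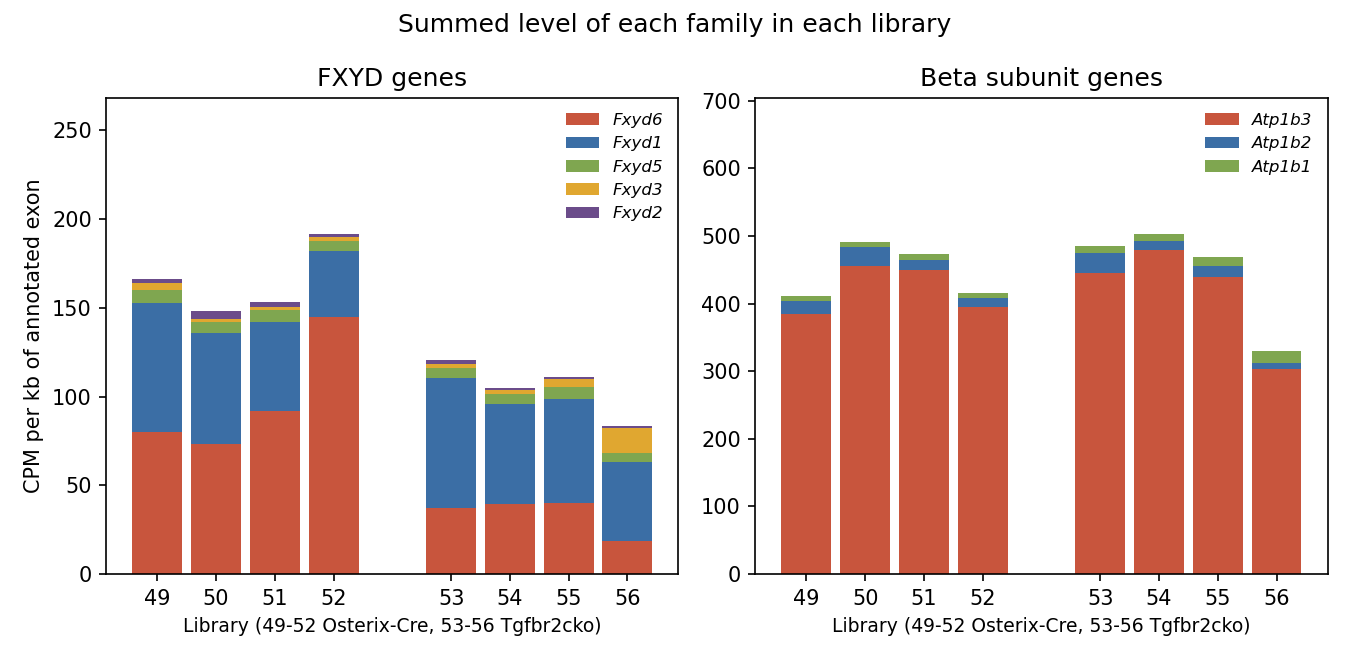
Stacked CPM per kb of annotated exon (y axis, from 0) of the FXYD and beta subunit genes in each library (x axis). The FXYD columns are shorter in all 4 Tgfbr2cko libraries through their *Fxyd6* segment, whereas *Atp1b3* fills the beta columns in both genotypes.

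Among the beta subunits, *Atp1b1* was the member altered upwards. *Atp1b1* encodes the beta subunit most widespread in epithelia and kidney. Its values were 4.47, 4.53, 4.79 and 4.63 log2 CPM in the controls and 5.12, 4.98, 5.40 and 5.82 in Tgfbr2cko, on 217 to 766 reads per library. Every mutant value was higher than every control value, with a gap of 0.20 log2 units between the groups, and library 56 was the highest. The log2 difference was 0.73 ± 0.19 (SE, 95% confidence interval 0.31 to 1.15), or 1.66-fold. The unadjusted p was 0.00231 and the adjusted p 0.120 in limma, and the exact permutation p was 0.0286, the smallest that 4 against 4 libraries can give.

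Of the 3 libraries rich in enamel transcripts, library 56 alone changed the *Atp1b1* call when left out singly. The log2 difference was then 0.57, just under the 1.5-fold threshold. It was 0.69 without library 49 and 0.71 without library 55, both past the thresholds. Without libraries 49, 55 and 56 together it was 0.41, past neither threshold. The summed level of the 10 enamel epithelium markers, all of them analysed, was 4190.1 to 23557.6 CPM in the controls and 4458.9 to 195923.4 CPM in Tgfbr2cko. Among them, *Krt14* was 8.95 and 10.61 log2 CPM in libraries 55 and 56 and 7.01 to 7.64 in the other 6. *Cdh1*, the epithelial cadherin, was 5.56 and 7.06 log2 CPM in libraries 55 and 56 and 3.88 to 4.59 in the others. Of the 10, *Cdh1* was altered upwards and *Klk4* downwards, beside 2.12% and 3.65% of all genes. Other markers of the list behaved differently. *Klk4*, an enamel protease gene, was lower in Tgfbr2cko by 2.71 log2 units (limma adjusted p = 0.000136), and *Epcam* was 3.82 and 4.58 log2 CPM in libraries 55 and 56, 1.34 in library 53 and 3.13 to 4.35 in the controls. *Atp1b1* was lowest in control library 49, and in libraries 53 and 54 it lay above all controls. The part of epithelial cells in the *Atp1b1* difference was not tested.

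A share of the *Atp1b1* exon length, 18.66%, overlaps the gene *Nme7* on the opposite strand, and the counting was not stated to use strand. *Nme7* had 98 to 219 reads per library, and its log2 difference was -0.23 (limma adjusted p = 0.945), opposite in sign to that of *Atp1b1*.

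**Figure D3:**
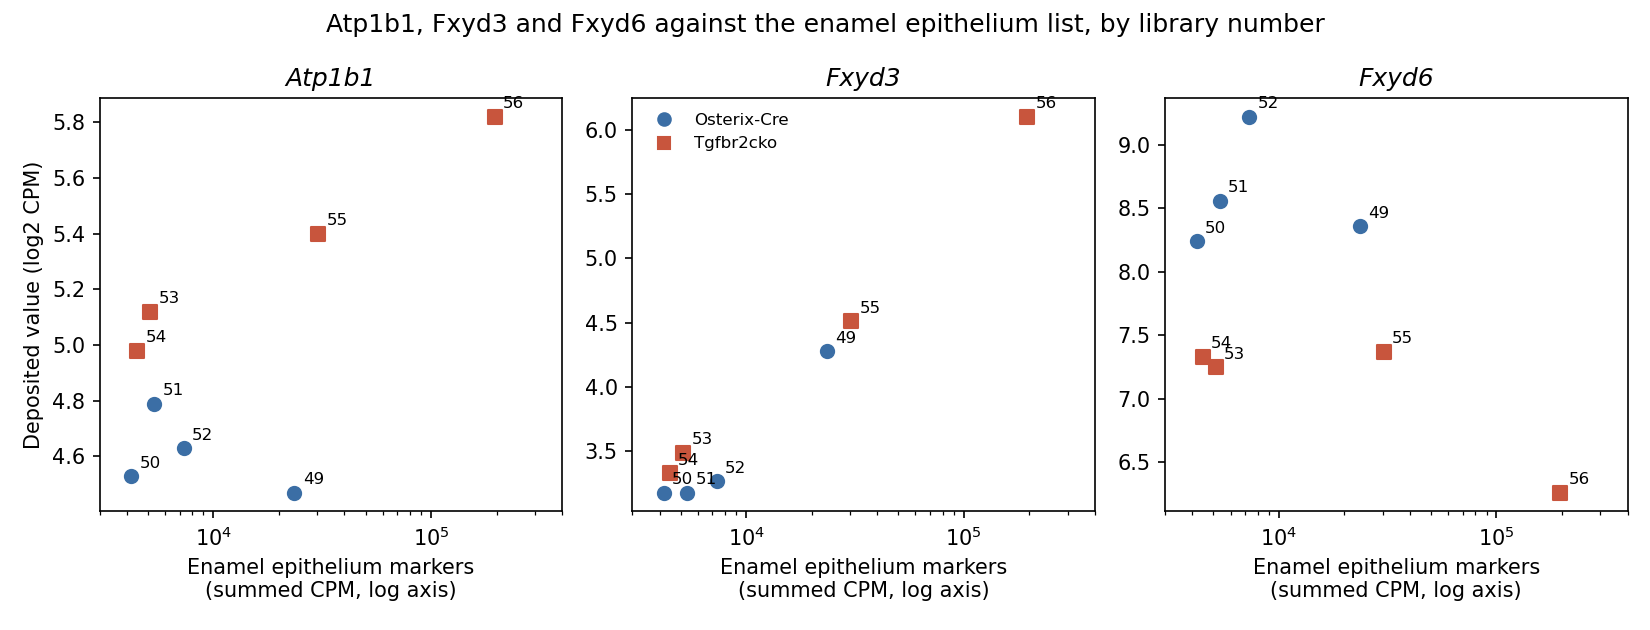
Deposited log2 CPM (y axes) of *Atp1b1*, *Fxyd3* and *Fxyd6* against the summed CPM of 10 enamel epithelium markers (x axis, log scale), with 1 numbered point per library (circles Osterix-Cre, squares Tgfbr2cko). *Fxyd3* was highest in libraries 49, 55 and 56, *Atp1b1* was low in library 49, and *Fxyd6* was lowest in library 56.

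*Atp1b3*, by far the main beta subunit gene, did not pass the thresholds. Its values were 9.84, 10.09, 10.07 and 9.88 log2 CPM in the controls and 10.05, 10.16, 10.04 and 9.50 in Tgfbr2cko, and library 56 alone lay below the controls. The log2 difference was -0.03 ± 0.19 (SE), and its 95% confidence interval of -0.44 to 0.38 spanned folds of 0.737 to 1.30 (limma adjusted p = 0.998, exact permutation p = 0.857). Without library 56 it was 0.11.

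*Atp1b2*, the beta subunit first described as an adhesion molecule on glia, varied widely within each genotype. Its values were 6.33, 6.84, 5.93 and 5.77 log2 CPM in the controls and 6.92, 5.69, 6.07 and 5.03 in Tgfbr2cko. The highest and the lowest value were both mutant. The log2 difference was -0.29 ± 0.34 (SE, 95% confidence interval -1.02 to 0.44), with a limma adjusted p of 0.972 and an exact permutation p of 0.543. It took both signs with single libraries left out, from -0.62 without library 53, which passed the thresholds, to 0.01 without library 56.

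The make-up of the beta level stayed dominated by *Atp1b3*. It made up 94.0% ± 1.08 (SD, n = 4) of the beta CPM per kb in the controls and 93.2% ± 1.75 in Tgfbr2cko. *Atp1b1* made up 1.52% to 1.92% in the controls and 2.04% to 5.57% in Tgfbr2cko, which did not overlap. The mean shares differed by 1.44 percentage points, and by 0.655 without library 56, which had the highest share. The summed beta level was 448 ± 40.5 CPM per kb in the controls and 447 ± 79.2 in Tgfbr2cko, so the rise of *Atp1b1* was small beside the total.

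**Figure D4:**
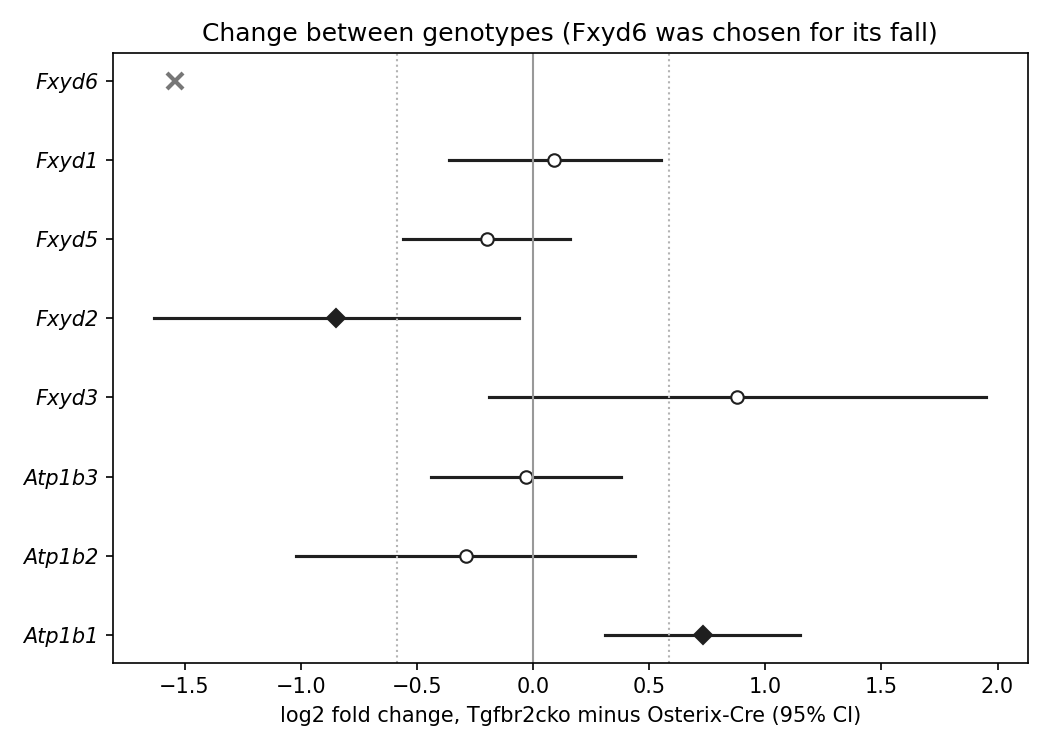
Log2 fold change (x axis, Tgfbr2cko minus Osterix-Cre, n = 4 and 4) with its 95% confidence interval in limma for each gene but *Fxyd6*, filled diamonds for genes past both thresholds and dotted lines at 1.5-fold. *Fxyd2* (-0.85) and *Atp1b1* (0.73) pass, and *Fxyd6* (grey cross, -1.54) was selected on this difference and has no interval.

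Proteins that use or regulate the sodium gradient were read from fixed lists. Of 12 genes of related P-type pumps, a list of calcium and proton pump genes that includes a beta subunit gene, *Atp4b*, 5 were analysed and none was altered, beside 5.77% of all genes (limma, with 1 at an unadjusted p under 0.05). The largest log2 differences were 0.40 for the plasma membrane calcium pump *Atp2b4* (under 1.5-fold, limma adjusted p = 0.390), 0.30 for *Atp2b1*, 0.28 for *Atp2b3* (0.63 without library 56 and 0.68 with library weights, both past the thresholds) and 0.26 for the Golgi pump *Atp2c1*. The median log2 difference over the 5 was 0.28, beside -0.01 over all genes.

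Of 12 sodium-coupled transporters, 10 were analysed, 1 was altered upwards and 1 downwards, beside 2.12% and 3.65% of all genes. *Slc8a3*, a sodium-calcium exchanger, was 4.11, 4.17, 5.29 and 5.50 log2 CPM in the controls and 5.66, 6.63, 6.57 and 5.61 in Tgfbr2cko. All mutant values lay above the controls, with a log2 difference of 1.35 (limma adjusted p = 0.0959). *Slc6a6*, the taurine transporter, was 7.47, 7.79, 8.17 and 7.66 log2 CPM in the controls and 6.49, 7.22, 6.66 and 6.82 in Tgfbr2cko. All mutant values lay below the controls, with a log2 difference of -0.97 (limma adjusted p = 0.0257). The bicarbonate transporters *Slc4a4* and *Slc4a7* differed by 0.57 and 0.47 log2 units, under 1.5-fold (limma adjusted p = 0.499 and 0.548), and *Slc4a4* passed without any one of libraries 49, 51, 54 or 55 (0.65 to 0.73), with libraries of one title number averaged (0.61) and without libraries 49, 55 and 56 (0.60). The median log2 difference over the 10 was 0.22.

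Of 14 pump partners and regulators, 12 were analysed, 2 were altered upwards and 0 downwards, beside 2.12% and 3.65% of all genes. *Sgk3*, a kinase that acts on ion transporters, was 6.12 to 6.74 log2 CPM in the controls and 6.55 to 7.52 in Tgfbr2cko, a log2 difference of 0.71 (limma adjusted p = 0.191) that was 0.57 without library 56 and 0.41 without libraries 49, 55 and 56, neither called. *Nkain4*, named for its interaction with the pump, rested on 8 to 33 reads per library, with a log2 difference of 0.88 (limma adjusted p = 0.522), and was not called without any one of libraries 50, 51, 53 or 54 (0.72 to 0.80) or with libraries of one title number averaged (0.88). The ubiquitin ligase gene *Nedd4l* differed by 0.75 and *Nkain2* by -0.41, neither past the thresholds, although *Nedd4l* passed without library 54 (1.05) and with libraries of one title number averaged (0.75), and was 0.08 without libraries 49, 55 and 56. The median log2 difference over the 12 was 0.08.

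Of the 2 other analysed genes around *Fxyd6*, none was altered, beside 5.77% of all genes (limma, 0 of 2 at an unadjusted p under 0.05). These are too few genes to tell apart from that share. Besides *Fxyd2*, 2 analysed genes lay within 250 kb of the span of *Fxyd6* and *Fxyd2*. *Scn2b*, a beta subunit of sodium channels, was 4.77, 2.36, 3.46 and 1.80 log2 CPM in the controls and 4.92, 3.50, 3.53 and 3.83 in Tgfbr2cko, a log2 difference of 0.85 (limma adjusted p = 0.810) that passed the thresholds without library 49 (1.41) and without libraries 49, 55 and 56 (1.67). *Il10ra*, an interleukin receptor gene, differed by 0.23 (limma adjusted p = 0.994). Control library 52, the highest for *Fxyd6*, was the lowest for *Scn2b* and for *Fxyd2* among the controls.

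The genes nearest to *Fxyd6* in pattern over the libraries are given as a description. Among 10313 genes with a mean of at least 3 log2 CPM, the 5 with the highest Pearson r with *Fxyd6* were *Bcan*, which encodes the proteoglycan brevican (r = 0.99), *Ctse*, which encodes cathepsin E (0.99), *Irgq* (0.98), *Trim2* (0.98) and *Mypn*, which encodes the actin-anchoring protein myopalladin (0.98). Their log2 differences were -1.61, -2.68, -0.30, -1.02 and -1.63, and since *Fxyd6* was selected on its fall, their sign follows from the choice and they are given without a test. A shared difference between genotypes raises r over the 8 libraries, and the libraries share depth and composition, so r is also untested. *Bcan* was 5.45, 5.20, 5.66 and 6.10 log2 CPM in the controls and 4.09, 4.29, 4.29 and 3.30 in Tgfbr2cko, highest in library 52 and lowest in library 56 like *Fxyd6*.

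When the mean of each genotype was removed, the 5 nearest genes were *Optn*, *Bcan*, *Xrn1*, *Pdk1* and *Raver2*, with r between 0.97 and 0.99 over the 8 deviations. *Bcan* was the one gene in both sets. For *Fxyd6*, the libraries furthest from their genotype means were library 56 (6.26 against 7.05 log2 CPM) and control library 52 (9.22 against 8.59). The r without these libraries was not computed. Within the family, r of the log2 values with *Fxyd6* was -0.87 for *Atp1b1*, -0.70 for *Fxyd3*, 0.57 for *Fxyd2*, 0.56 for *Fxyd5*, 0.35 for *Atp1b3*, 0.31 for *Atp1b2* and -0.20 for *Fxyd1*. After removal of the genotype means it was -0.54, -0.70, 0.10, 0.17, 0.59, 0.19 and -0.14 in the same order.

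**Figure D5:**
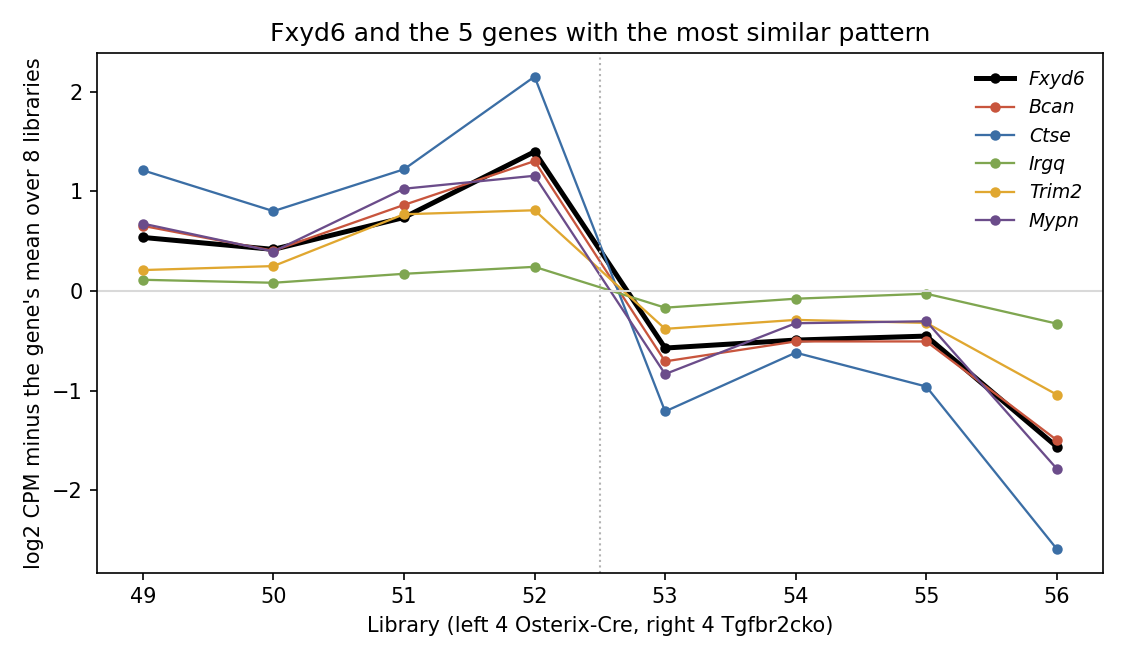
Log2 CPM minus the gene's mean over the 8 libraries (y axis) for *Fxyd6* (black) and the 5 genes with the highest r to it, by library (x axis), with lines joining the values of 1 gene. All 6 genes lie above their mean in the 4 Osterix-Cre libraries and below it in the 4 Tgfbr2cko libraries, with *Irgq* the flattest.

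Markers of cells in which some FXYD genes and beta subunits are known were read beside the members, and their counts of altered genes stand beside 5.77% of all genes in either direction, 2.12% higher and 3.65% lower. None of the 4 analysed sensory axon markers was altered (limma, with 0 at an unadjusted p under 0.05), with a summed level of 95.5 to 119 CPM in the controls and 112 to 187 CPM in Tgfbr2cko. Of the 4 analysed Schwann cell markers, *Prx* was lower, none passed at an adjusted p under 0.05 (limma, 2 at an unadjusted p under 0.05), and the sum was 30.0 to 38.9 and 30.2 to 36.8 CPM. The 5 mural cell markers analysed summed to 405 to 539 CPM in the controls and 293 to 380 CPM in Tgfbr2cko, without overlap, and *Rgs5* and *Pdgfrb* were lower, *Rgs5* also at an adjusted p under 0.05 (limma). Endothelial markers summed to 240 to 326 and 195 to 257 CPM, with *Tek* lower of 6 and none at an adjusted p under 0.05 (limma, 3 at an unadjusted p under 0.05). Macrophage markers summed to 425 to 577 and 245 to 526 CPM, with *Ptprc* and *Cd68* lower of 5 and none at an adjusted p under 0.05 (limma, 3 at an unadjusted p under 0.05). Erythroid markers summed to 655 to 1496.0 and 565 to 2540.8 CPM with none of 5 altered (limma, 0 at an unadjusted p under 0.05). Dental mesenchyme markers summed to 1766.3 to 2142.0 and 1465.6 to 2441.6 CPM, with *Lhx8* lower of 8, also at an adjusted p under 0.05 (limma). No analysed marker on these lists was at 0 reads in a library, the other listed markers were not read, and the part of these cell types in the differences of the members was not tested.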

How the data were processed

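RNA was extracted from DP of first molars, amplified from a low input and sequenced per the labels. Per the submitters' processing notes the reads were handled with fastp 0.21.0, HISAT2 2.1.0 and featureCounts from Subread 2.0.1 on GRCm38.p5. The authors kept genes by the CLEAR workflow and deposited voom log2 CPM values, in which 0.5 is added to each count before scaling to the library's sum. The library kit does not mark strand, and the strandedness of the counting is not given in the sources used here. All 97184 values returned whole reads, to within 3.61e-08 of a whole number, and these reads gave CPM and CPM per kilobase of all annotated exons (GENCODE M21, GRCm38, 12144 identifiers matched and 4 not). No molecular identifiers were used, so reads are not independent molecules and depths cover counting error only.

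The genotypes were compared on the deposited log2 values over all genes in R 4.3.3 with limma 3.58.1 (two-sided, intensity trend, Benjamini-Hochberg adjustment), and single genes by an exact permutation test, two-sided, of the 70 arrangements. The fit was also run on simulated data, and the outcome is not reported here. Members, gene lists and tests were chosen with earlier results of these data known. The text names all members, the other analysed FXYD and beta subunit genes, for each of 3 related lists every altered gene and the 4 with the largest change, analysed genes within 250 kb of *Fxyd6* and *Fxyd2*, and the 5 genes most like *Fxyd6* by each of 2 measures. *Lgi4*, *Nme7*, *Krt14*, *Cdh1*, *Epcam*, *Amelx*, *Ambn* and altered markers were named after their values were seen. Some genes that the rule also names are not reported here. Promoters were read with Python 3.11.15 from RefSeq tables and coding stretches from GENCODE transcripts. Alternatives were other weights, scalings and filters, and leaving out each library.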

Additional observations from a re-analysis of the deposited data

Results flagged for a closer look

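*Fxyd6* in Tgfbr2cko library 56, at 6.26 log2 CPM, lay far from the other 3 mutant libraries (7.25 to 7.37). Its gap to the nearest of them was 0.895 of the group's range. This is a description with no test, since *Fxyd6* was selected on its fall and library 56 contributed to that fall, with a log2 difference of -1.54 over all libraries and -1.27 without it. Library 56 also had the most enamel matrix reads, with *Amelx* and *Ambn* at 18.5% of its total, and the part of these reads in the low *Fxyd6* value was not tested.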

How the results depend on the processing

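At an adjusted p under 0.05, 115 genes passed in place of 701, and under the other alternatives the number altered was 510 to 947 (625 to 947 with single libraries left out). The *Fxyd6* log2 difference was -1.66 to -1.27 with single libraries left out and -1.64 to -1.33 under the others. With single libraries left out, the log2 difference was -1.11 to -0.55 for *Fxyd2*, 0.57 to 0.84 for *Atp1b1*, -0.08 to 0.24 for *Fxyd1*, -0.28 to -0.14 for *Fxyd5*, -0.62 to 0.01 for *Atp1b2* and -0.11 to 0.11 for *Atp1b3*. Without libraries 49, 55 and 56, an alternative chosen after seeing the data, it was 0.40 for *Fxyd1*, -0.50 for *Fxyd2*, 0.41 for *Atp1b1*, 0.12 for *Atp1b2*, 0.10 for *Atp1b3* and -0.16 for *Atp2c1*. With library weights it was 0.04 for *Atp1b3*. The cause of these shifts was not tested. *Fxyd2* kept its call under 6 alternatives of weights, scaling and averaging, and was not in the fit of genes with a mean of at least 3 log2 CPM. The difference in the *Fxyd6* share was -30.1 to -20.9 percentage points with single libraries left out, in the *Atp1b1* share 0.655 to 1.83 and in the *Atp1b3* share -1.62 to -0.334. No fit was made for *Fxyd7*. No paired analysis was possible because the library numbers are not shared between the genotypes and 1 title number alone is. Depth limits *Fxyd2*, with 44 reads in its thinnest library, more than the other members, and 4 libraries per genotype limit all intervals.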
